A study of Homo sapiens with 12 samples.

Results

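Lenvatinib-resistant Huh7 cells were compared with parental Huh7 cells in 6 of the 12 RNA-seq libraries of the series, 3 resistant and 3 parental, picked by the cell line and group that their labels name. Huh7 is an established line from a human hepatocellular carcinoma. Both groups were grown in serum-containing DMEM, and total RNA was extracted from each. The treatment field gives DMSO or lenvatinib for every library alike, so which libraries met the drug before harvest is not known here. How the resistant line was selected, and whether it is a clone or a pool, is not given in the sources used here. No label says that the 3 libraries of a group came from separate cultures, so p-values measure the spread between these libraries, which may be technical. The other 6 libraries are resistant and parental Hep3B cells, another liver cancer line, and are used only for a comparison near the end.

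Lenvatinib blocks the kinase activity of the VEGF receptors, the FGF receptors, PDGFRA, KIT and RET. In liver cancer cells FGF19 binds FGFR4 together with beta-Klotho (KLB), its co-receptor, and the signal passes through the MAPK cascade to genes such as CCND1, DUSP6 and the SPRY family. Hepatocyte-derived lines also keep functions of the liver to varying degrees: they secrete plasma proteins and lipoproteins, conjugate foreign compounds and steroids, and make hepcidin, the hormone that limits iron release into the blood.

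The Huh7 table lists 7533 genes, and it is a selection: the largest adjusted p in the authors' deposited table was 0.0499. Counts below are therefore counts within genes already chosen for a difference between these groups. Of 7531 genes tested with limma on log2(scaled reads + 1), all 7531 had an adjusted p under 0.05 (100%), 3614 higher in resistant cells (48.0%) and 3917 lower (52.0%), and in 98.6% the 3 resistant values did not overlap the 3 parental ones. Against this background, a count of members called in a list carries no information beyond its direction, and the sizes and levels are what the data offer. The median size of change was 1.46-fold, and 25% of the genes changed by less than 1.26-fold. In resistant cells 959 genes were at least 2-fold higher (12.7%) and 968 at least 2-fold lower (12.9%). At 8-fold the split was 93 higher and 145 lower, and at 16-fold 14 higher and 58 lower. The median log2 fold change over all genes was -0.19.

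Levels are scaled reads, meaning reads times 1 factor per library, not divided by gene length, and are given as mean ± SD over 3 libraries a group. A signed number ± SE is a log2 fold change, resistant over parental, on the log2(scaled reads + 1) scale, which understates the change of low genes. The recovered reads over listed genes were 11480608 to 11800771 per resistant library and 12029528 to 14174202 per parental library, and replicates of a group correlated at 0.993 on the log2 scale (Pearson, across genes, which are not independent replicates). The hepatocyte-derived label fits the markers found: 8 of 12 were in the table (AFP, APOA1, APOB, TF, SERPINA1, FGB, FOXA1 and FOXA2), with summed levels of 559717 to 582732 in resistant libraries and 453929 to 501070 in parental ones. AFP made up the largest part of these sums, at 318702 ± 9282 in resistant and 239517 ± 17569 in parental cells, whereas FGB fell (-0.80 ± 0.04). The change also moved with base composition. From the fifth of genes with the lowest GC content of the transcript to the highest, the median log2 fold change was 0.32, 0.29, -0.20, -0.31 and -0.42. After centring within bins of GC content, an alternative added after seeing the data, 2999 genes were called higher and 2997 lower. The part of GC content in the single results was not tested. For genes picked by a fixed rule, values that turn under this centring are named where they occur. Genes given only as examples of a list were not followed under it.

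**Figure D1:**
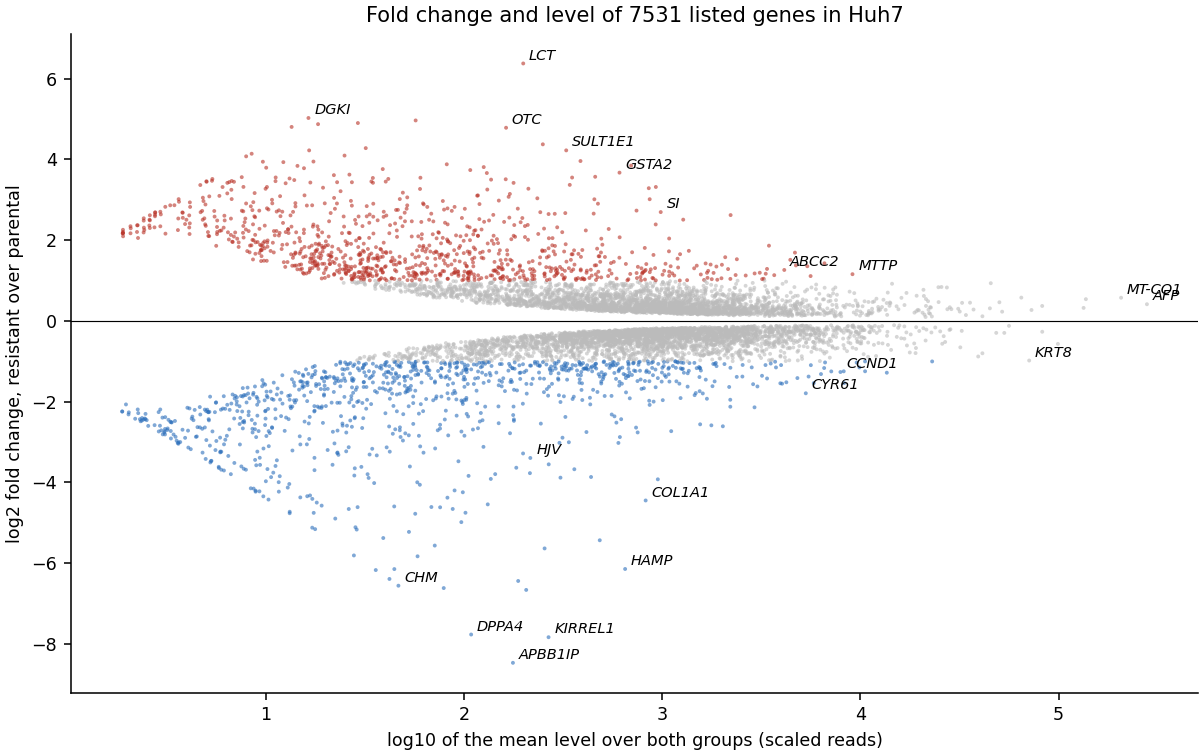
Log2 fold change of resistant over parental Huh7 cells (vertical) against the log10 of the mean level over both groups in scaled reads (horizontal), 1 point per tested gene, with genes at least 2-fold higher in red and at least 2-fold lower in blue. The gap around 0 comes from the selection of genes, LCT lies highest at 6.38, and APBB1IP, with 0 reads in resistant cells, lies lowest.

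The highest fold rise at a mean of at least 100 scaled reads was that of LCT. LCT, lactase of the intestinal brush border, had 418, 419 and 346 scaled reads in the resistant libraries, against 2.94, 4.07 and 4.31 in the parental libraries. The resistant libraries lay far above the parental ones, at a log2 fold change of 6.38 ± 0.22 (SE, n = 3 each; limma adjusted p = 7.05e-15). OTC, the urea cycle enzyme ornithine transcarbamylase, had 283, 344 and 319 scaled reads in the resistant libraries, against 10.8, 12.2 and 8.62 in the parental libraries, a log2 fold change of 4.79 ± 0.19 (SE, n = 3 each; limma adjusted p = 6.45e-14). CNTNAP2, a neurexin-family membrane protein of axons, had 459.8, 510.3 and 462 scaled reads in the resistant libraries, against 16.7, 27.5 and 23.3 in the parental libraries, a log2 fold change of 4.38 ± 0.17 (SE, n = 3 each; limma adjusted p = 3.93e-14). In each of these genes all 3 resistant values exceeded all 3 parental ones more than 10-fold.

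Among the 15 genes with the largest rises at a mean of at least 100 scaled reads in one group were also PRSS12, a brain serine protease (3.96 ± 0.14), SCD5, a stearoyl-CoA desaturase (3.88 ± 0.26), GBA3, the cytosolic beta-glucosidase (3.85 ± 0.10), APOD, a lipocalin that carries small lipids (3.81 ± 0.20), and PTN, the heparin-binding growth factor pleiotrophin (3.74 ± 0.21). RFX6, a transcription factor of pancreatic and gut endocrine cells, averaged 243 ± 27.5 in resistant and 18.2 ± 2.17 in parental cells and rose by 3.66 ± 0.18 on the log2 scale. MAP7, a microtubule-binding protein of epithelial cells, averaged 847 ± 24.2 in resistant and 71.4 ± 16.2 in parental cells. CCNB3, a B-type cyclin, averaged 648 ± 35.2 in resistant and 54.3 ± 1.61 in parental cells. RALYL, a relative of the RNA-binding protein RALY, averaged 111 ± 15.2 in resistant and 3.32 ± 3.34 in parental cells and had the next highest rise after LCT (4.97 ± 0.41). The group was completed by SULT1E1, GSTA2 and ODAM.

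Several genes with clear parental levels lost all or nearly all reads in resistant cells. APBB1IP, the adaptor RIAM that links RAP1 to integrin activation, had 0 reads in each resistant library, against 356, 348 and 356 scaled reads in the parental libraries, which makes it at least 340-fold lower against a floor of 3 reads over the group. DPPA4, a chromatin-associated protein of pluripotent cells, also had 0 resistant reads, against 197, 226 and 229 scaled reads in parental libraries, at least 209-fold lower. KIRREL1, an adhesion molecule of the nephrin family, had 2.08, 3.15 and 0 scaled reads in the resistant libraries, against 539, 542 and 517 in the parental libraries. No resistant library reached 1% of any parental one for these genes. Intervals and floors in this text cover counting error only.

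In all, 145 genes had 3 or fewer reads over the resistant libraries (1.92%), 69 of them 0, and 93 had 3 or fewer over the parental libraries (1.23%), 44 of them 0. The directions differed in level: 11 of the 145 had a parental mean of at least 50 scaled reads, whereas the highest resistant mean among the 93 was 36.4. The X chromosome, with 251 listed genes, held 16 of the 145, and chromosome 1, with 780, also held 16. CHM, the Rab escort protein needed for Rab prenylation, had 0 resistant reads against 86.2, 95.7 and 98.3 scaled reads in parental libraries (at least 89.9-fold lower). APOOL, a protein of mitochondrial cristae encoded near CHM on the X chromosome, had 0 against 68.6, 80.4 and 103 (at least 81.0-fold lower). Both were undetected in every resistant library and present in every parental one.

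DYNLT3, a dynein light chain encoded on the X chromosome, had 3 resistant and 499 parental reads, a scaled ratio of parental over resistant of 153 (95% counting interval 51.9 to 742). ARHGAP23, a GTPase activating protein, had 1 and 281 reads (258, 45.9 to 10217), and MYBPC3, cardiac myosin-binding protein C, had 3 and 241 (73.7, 24.9 to 360). AF228730.5, a transcript with no named function in the files, had 0 resistant and 229 parental reads, at least 69.1-fold lower. In the other direction DGKI, a diacylglycerol kinase, had 95 resistant and 0 parental reads (at least 34.5-fold higher) and STAC, an adaptor of muscle and neuronal calcium channels, had 78 and 0 (at least 28.3-fold higher). PIGR, the epithelial receptor that carries immunoglobulin A across cells, had 105 and 1 (a resistant over parental ratio of 114, 20.1 to 4564). SEMA3E, a secreted guidance cue, had 69 and 2 (37.6, 10.0 to 317). LINC01996, CERKL, PLCB4 and FAM153A followed with 55 to 93 resistant reads and 1 to 3 parental reads. All of these genes were low in resistant cells, at means of 19.0 to 36.4 scaled reads.

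The remaining large falls included receptors, secreted factors and a lineage regulator of blood cells. F2RL2, the thrombin receptor PAR3, had 4.15, 1.05 and 5.15 scaled reads in the resistant libraries, against 352, 417 and 457 in the parental libraries. ADA2, a secreted adenosine deaminase, had 1.04, 5.25 and 5.15 scaled reads in the resistant libraries, against 342, 371 and 403 in the parental libraries. Both genes had from 1.04 to 5.25 scaled reads in any resistant library and at least 342 in any parental one. IRF8, a transcription factor best known from myeloid cells, had 11.4, 0 and 1.03 scaled reads in the resistant libraries, against 157, 132 and 126 in the parental libraries. IGFBP5, which binds insulin-like growth factors, fell (-4.98 ± 0.26), and IL11, an interleukin-6 family cytokine (-4.78 ± 0.30). FUT3, the fucosyltransferase that makes Lewis antigens, averaged 21.8 ± 7.103 in resistant and 947 ± 37.7 in parental cells; its close homologue FUT6 was also lower, and reads of the pair may have been divided between them. GJB7, a connexin, and AC092490.1 were also among the 15 genes with the largest falls.

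**Figure D2:**
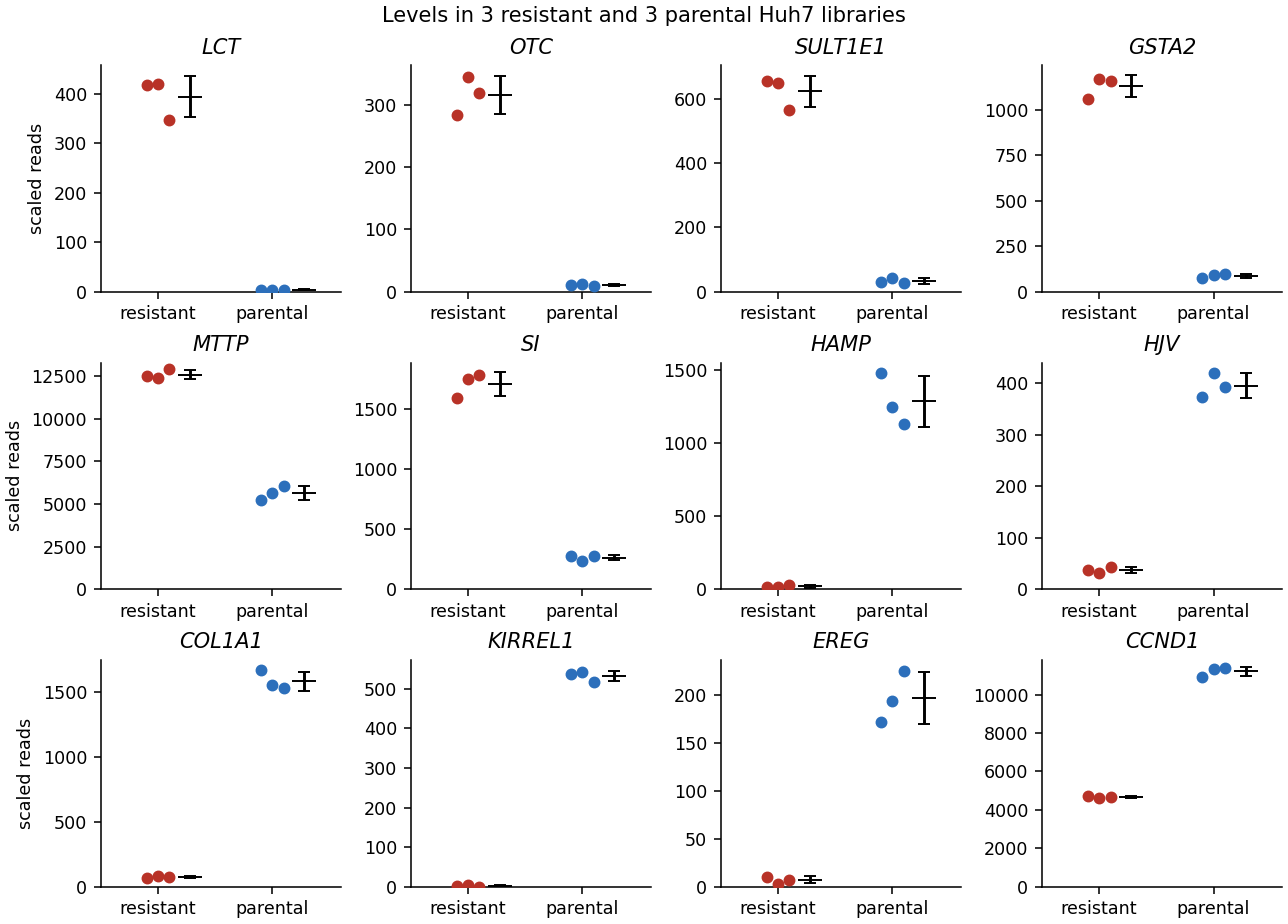
Scaled reads (vertical) of 12 genes in each of 3 resistant (red) and 3 parental (blue) Huh7 libraries, with the group mean and SD in black beside the points. In each gene shown the groups do not overlap; LCT, OTC, SULT1E1, GSTA2, MTTP and SI are higher in resistant cells, and HAMP, HJV, COL1A1, KIRREL1, EREG and CCND1 lower.

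The list with the highest median rise among those with at least 5 measured members covered bile acid and xenobiotic metabolism. Of 12 measured members, 10 rose and 2 fell, 8 of the rises at least 2-fold, with a median log2 fold change of 1.83 (1.73 after centring by GC content) beside -0.19 over all genes. SULT1E1, which sulfates oestrogens, had 655, 648 and 567 scaled reads in the resistant libraries, against 30.4, 42.8 and 25.9 in the parental libraries. GSTA2, a glutathione transferase, had 1062, 1169.6 and 1159.8 scaled reads in the resistant libraries, against 76.4, 92.6 and 94.9 in the parental libraries. GSTA1, its near-identical paralogue, had 3778, 3796 and 3852 scaled reads in the resistant libraries, against 539.7, 638 and 684 in the parental libraries. All 3 were several-fold higher in each resistant library than in any parental one, and reads of both GSTA genes may have been divided between them. The drug-oxidising CYP2C19 rose by 3.45 ± 0.53 on the log2 scale. UGT1A1, which glucuronidates bilirubin, rose by 2.28 ± 0.59; the UGT1A genes share exons, so this assignment is uncertain. The members that fell were CYP1A1, the dioxin-inducible monooxygenase (-1.64 ± 0.10), and EPHX1, microsomal epoxide hydrolase (-0.50 ± 0.06).

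Promoters of conjugating and brush-border genes with large rises are shown where they held GTTAAT. This is a core piece of the site bound by HNF1, a liver and gut transcription factor. It was searched on both strands, after the values of these genes had been seen. Each run is RefSeq sequence of GRCh38.p14, the 250 bases before the gene's start, 5' to 3' on the gene's strand, with the match in capitals (here on the opposite strand, ATTAAC). The windows lie at chr4:69860146-69860395 on the minus strand, chr6:52803817-52804066 on the minus strand, chr6:52763476-52763725 on the minus strand and chr3:165078497-165078746 on the minus strand, in the order printed.
SULT1E1: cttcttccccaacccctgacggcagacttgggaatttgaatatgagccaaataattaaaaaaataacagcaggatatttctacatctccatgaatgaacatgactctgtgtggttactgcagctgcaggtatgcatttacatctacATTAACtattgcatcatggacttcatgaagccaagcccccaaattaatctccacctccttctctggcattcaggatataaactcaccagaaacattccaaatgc
GSTA1: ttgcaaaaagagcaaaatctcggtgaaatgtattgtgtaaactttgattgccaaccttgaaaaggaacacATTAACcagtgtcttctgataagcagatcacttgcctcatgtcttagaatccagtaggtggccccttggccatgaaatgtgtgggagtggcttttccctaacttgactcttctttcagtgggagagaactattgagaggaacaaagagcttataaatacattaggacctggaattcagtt
GSTA2: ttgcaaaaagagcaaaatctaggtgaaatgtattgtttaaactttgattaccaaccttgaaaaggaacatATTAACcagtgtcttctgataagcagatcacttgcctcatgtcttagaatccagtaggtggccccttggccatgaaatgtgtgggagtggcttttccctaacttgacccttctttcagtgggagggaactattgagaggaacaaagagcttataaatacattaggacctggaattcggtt
SI: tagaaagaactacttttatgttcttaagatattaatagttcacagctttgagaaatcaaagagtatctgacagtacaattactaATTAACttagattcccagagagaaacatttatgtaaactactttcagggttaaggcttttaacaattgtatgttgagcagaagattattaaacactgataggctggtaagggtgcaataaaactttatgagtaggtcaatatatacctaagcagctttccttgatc
The match began 104 bases before the start in SULT1E1, 180 in both GSTA genes and 166 in SI. The windows of GSTA1 and GSTA2 share 243 of 250 bases. Over 35116 RefSeq promoter windows, which run on past the start and so are longer than the runs printed, 6.88% held this motif. It was not in the windows of UGT2B10, UGT2A3, UGT2B7, UGT2B11, SULT1B1, OTC or ALPI, which says only that these letters are not there. LCT, the brush-border gene with the largest rise, had no promoter sequence in the source used and was not searched.

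Markers of gut and nerve cells were listed because LCT stood out. Of 7 measured members 6 rose and 1 fell, with a median log2 fold change of 0.88; LCT and CNTNAP2, described above, are among the 6, so the count and the median restate them in part. SI, sucrase-isomaltase of the intestinal brush border, had 1590, 1747 and 1776 scaled reads in the resistant libraries, against 278, 234 and 275 in the parental libraries. Every resistant value was more than 5 times every parental one. CDX2, the intestinal master regulator, rose by 0.85 ± 0.07 on the log2 scale, MUC13, an epithelial mucin, by 0.88 ± 0.07, and SNAP25, a synaptic vesicle fusion protein, by 0.74 ± 0.16. ENO2, the neuronal enolase, averaged 36.02 ± 7.03 in resistant and 204 ± 4.32 in parental cells.

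Iron genes held one of the largest falls of an expressed gene. HAMP, which encodes hepcidin, had 14.5, 12.6 and 26.8 scaled reads in the resistant libraries, against 1475, 1245 and 1128 in the parental libraries. The highest resistant library was at 26.8 and the lowest parental one at 1128, and the log2 fold change was -6.14 ± 0.20 (SE, n = 3 each; limma adjusted p = 2.31e-15). HJV, hemojuvelin, the BMP co-receptor that drives HAMP transcription, had 37.4, 30.4 and 43.3 scaled reads in the resistant libraries, against 373, 420.4 and 392 in the parental libraries, also with a wide gap between the groups. The proximal HAMP promoter is shown because it holds 2 sequence elements through which the hormone is known to be regulated, GGCGCC, the core of its BMP-responsive element, and TTCTTGGAA, its STAT site, both in capitals. The run is the 250 bases before the start in RefSeq, GRCh38.p14, chr19:35282278-35282527, plus strand.
HAMP: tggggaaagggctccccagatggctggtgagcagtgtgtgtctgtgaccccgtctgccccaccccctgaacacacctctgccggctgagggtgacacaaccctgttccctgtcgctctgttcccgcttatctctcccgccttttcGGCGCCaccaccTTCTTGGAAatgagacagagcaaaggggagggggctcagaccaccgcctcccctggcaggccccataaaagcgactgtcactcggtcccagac
GGCGCC began 105 bases and TTCTTGGAA 93 bases before the start. Of 35116 promoter windows, which run on past the start and so are longer than the run printed, 19.2% held the first and 0.362% the second on either strand. The files hold no measurement of binding at either element.

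Over the whole iron list, HAMP and HJV included, 7 of 14 measured members were higher and 7 lower, with a median log2 fold change of -0.09. In the list of TGF-beta, activin and BMP genes, 16 of 17 measured members were lower. BMP4 averaged 209.8 ± 19.9 in resistant and 687 ± 69.04 in parental cells, and BMP2 fell (-0.70 ± 0.05). SMAD6, an inhibitory SMAD that BMP signals induce, also fell (-0.59 ± 0.07). Any part of these genes in the fall of HAMP was not tested. The other hemochromatosis proteins that act on HAMP went the other way, HFE at 0.60 ± 0.17 and TFR2 at 0.43 ± 0.08; HFE no longer passed the threshold after centring by GC content. The storage proteins fell, FTL at 79899 ± 698 in resistant and 118515 ± 3372 in parental cells, and FTH1 at 24844 ± 2108 in resistant and 39024 ± 1803 in parental cells. Ferroportin (SLC40A1), the exporter that hepcidin degrades, averaged 3233 ± 102 in resistant and 4375 ± 63.9 in parental cells. SLC39A14, an importer of iron and zinc, fell (-0.43 ± 0.04). DMT1 (SLC11A2) rose by 0.43 ± 0.06, the ferrireductase STEAP3 by 0.32 ± 0.08 and IREB2, which senses iron, by 0.24 ± 0.05; IREB2 turned to -0.07 after centring by GC content. Of the plasma proteins tied to iron and haem, ceruloplasmin (CP) averaged 4796 ± 286 in resistant and 1966 ± 191 in parental cells, haptoglobin (HP) 414 ± 16.6 in resistant and 167 ± 4.51 in parental cells, and hemopexin (HPX) 1481 ± 27.1 in resistant and 4567 ± 305 in parental cells.

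The metallothioneins, small metal-binding proteins, were listed with their activator MTF1, and all 8 measured members fell, with a median log2 fold change of -0.53. After centring by GC content 5 of the 8 were still called lower. MT2A had 2244, 2029 and 2297 scaled reads in the resistant libraries, against 6104, 6489.6 and 6227 in the parental libraries, a fall in every resistant library. MT1F, MT1E and MT1H fell (-0.64 ± 0.06, -0.61 ± 0.06 and -0.59 ± 0.08). These paralogues are similar enough that the division of their reads is uncertain.

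Fatty acid oxidation genes rose more often than they fell, 10 of 14, with a median log2 fold change of 0.63. PPARA, the nuclear receptor that controls this pathway in liver, averaged 1107 ± 89.2 in resistant and 486 ± 85.8 in parental cells. Its coactivator PPARGC1A averaged 160.4 ± 7.71 in resistant and 48.3 ± 7.55 in parental cells, and FABP1, the liver fatty acid binding protein, 7758 ± 507 in resistant and 3039 ± 325 in parental cells. These 3 rises were all at least 2-fold. Members of the same list moved the other way: ANGPTL4, a lipoprotein lipase inhibitor, averaged 58.9 ± 4.64 in resistant and 139.7 ± 18.6 in parental cells, and CPT1A, which admits fatty acids to mitochondria, fell (-1.06 ± 0.13).

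Fatty acid synthesis genes split 9 higher and 6 lower, which became 11 and 4 after centring by GC content. ME1, the cytosolic malic enzyme that supplies NADPH, averaged 3047 ± 71.5 in resistant and 1254 ± 130.1 in parental cells, and ACACB, an acetyl-CoA carboxylase at the mitochondrial surface, 439 ± 7.69 in resistant and 207 ± 7.38 in parental cells. ACSS2, which makes acetyl-CoA from acetate, rose by 0.87 ± 0.05. The core enzymes moved little before that centring, with FASN at -0.25 ± 0.06, ACACA at -0.29 ± 0.05 and ACLY at -0.33 ± 0.05. Cholesterol synthesis genes split 6 higher and 7 lower, at a median of -0.15, which became 0.21 after centring by GC content. HMGCS1, FDFT1 and MSMO1, enzymes of the early, middle and late pathway, rose (0.77 ± 0.04, 0.79 ± 0.05 and 0.78 ± 0.06), and CYP51A1, lanosterol demethylase, fell (-0.64 ± 0.15).

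Lipoprotein genes split 8 higher and 6 lower, and their median of 0.26 became 0.02 after centring by GC content. MTTP, which loads lipid onto apolipoprotein B, had 12483, 12391 and 12913 scaled reads in the resistant libraries, against 5224, 5652 and 6081 in the parental libraries, at least a doubling of any parental value in each resistant library. APOA2, a protein of high-density lipoprotein, had 9562, 9595 and 9670 scaled reads in the resistant libraries, against 3528, 3572 and 3611 in the parental libraries. APOE was lower, at 27648 ± 627 in resistant and 50975 ± 3611 in parental cells. APOC2, the activator of lipoprotein lipase, was low in both groups and averaged 4.16 ± 1.79 in resistant and 27.2 ± 4.89 in parental cells, and APOC1 averaged 2047 ± 133 in resistant and 3546 ± 33.3 in parental cells. Smaller rises were those of APOA1 (0.28 ± 0.05), APOB (0.27 ± 0.05), APOC3 (0.47 ± 0.09) and the phospholipid transfer protein PLTP (0.64 ± 0.06); APOB no longer passed the threshold after centring by GC content. The lipases LIPC and LIPG fell (-0.73 ± 0.06 and -0.51 ± 0.07). APOH, at 0.24 ± 0.07, and the receptor SCARB1, at -0.26 ± 0.05, turned to -0.03 and 0.03 after the same centring.

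Other secreted liver proteins also moved apart from each other: 12 of 21 rose and 9 fell. ORM1, an acute-phase glycoprotein, had 492, 522 and 501 scaled reads in the resistant libraries, against 3180.2, 2872 and 3060 in the parental libraries. AHSG, the plasma protein fetuin-A, averaged 7926 ± 518 in resistant and 19264 ± 925 in parental cells. The fibrinogen chains FGB, FGG and FGA all fell (-0.80 ± 0.04, -0.80 ± 0.04 and -0.38 ± 0.04). TF, transferrin, averaged 58260.1 ± 1683 in resistant and 42302 ± 2177 in parental cells, and AFP, the fetal plasma protein used as a liver cancer marker, 318702 ± 9282 in resistant and 239517 ± 17569 in parental cells. In the complement and coagulation list 11 of 28 rose and 17 fell. The classical pathway proteases C1R and C1S fell (-2.12 ± 0.13 and -1.49 ± 0.08), C2 (-1.86 ± 0.09), and C4A and C4B (-2.17 ± 0.30 and -2.59 ± 0.37); C4A and C4B are near-identical copies whose reads cannot be assigned with certainty. C6, of the terminal complex, rose by 1.71 ± 0.18.

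Liver transcription factors split 5 higher and 9 lower. HNF4G, a relative of HNF4A, averaged 719.9 ± 44.7 in resistant and 236 ± 15.6 in parental cells. NR0B2, the repressor SHP, averaged 209 ± 1.91 in resistant and 475 ± 21.2 in parental cells, and ONECUT1, a liver and bile duct factor, 266 ± 16.8 in resistant and 571 ± 5.98 in parental cells. Among oncofetal and progenitor genes, EPCAM averaged 3619 ± 84.6 in resistant and 1659.8 ± 100.1 in parental cells, PROM1 (CD133) 4194 ± 58.7 in resistant and 7134 ± 44.8 in parental cells, and KRT19 5618 ± 28.8 in resistant and 8879.6 ± 647 in parental cells. In the urea cycle and amino acid list 6 of 13 rose: besides OTC, ASS1, argininosuccinate synthase, averaged 1272 ± 29.5 in resistant and 363 ± 23.8 in parental cells. Of the enzymes of tyrosine breakdown HPD averaged 15.9 ± 1.53 in resistant and 82.9 ± 5.91 in parental cells, and TAT 31.8 ± 4.93 in resistant and 82.04 ± 10.4 in parental cells.

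**Figure D3:**
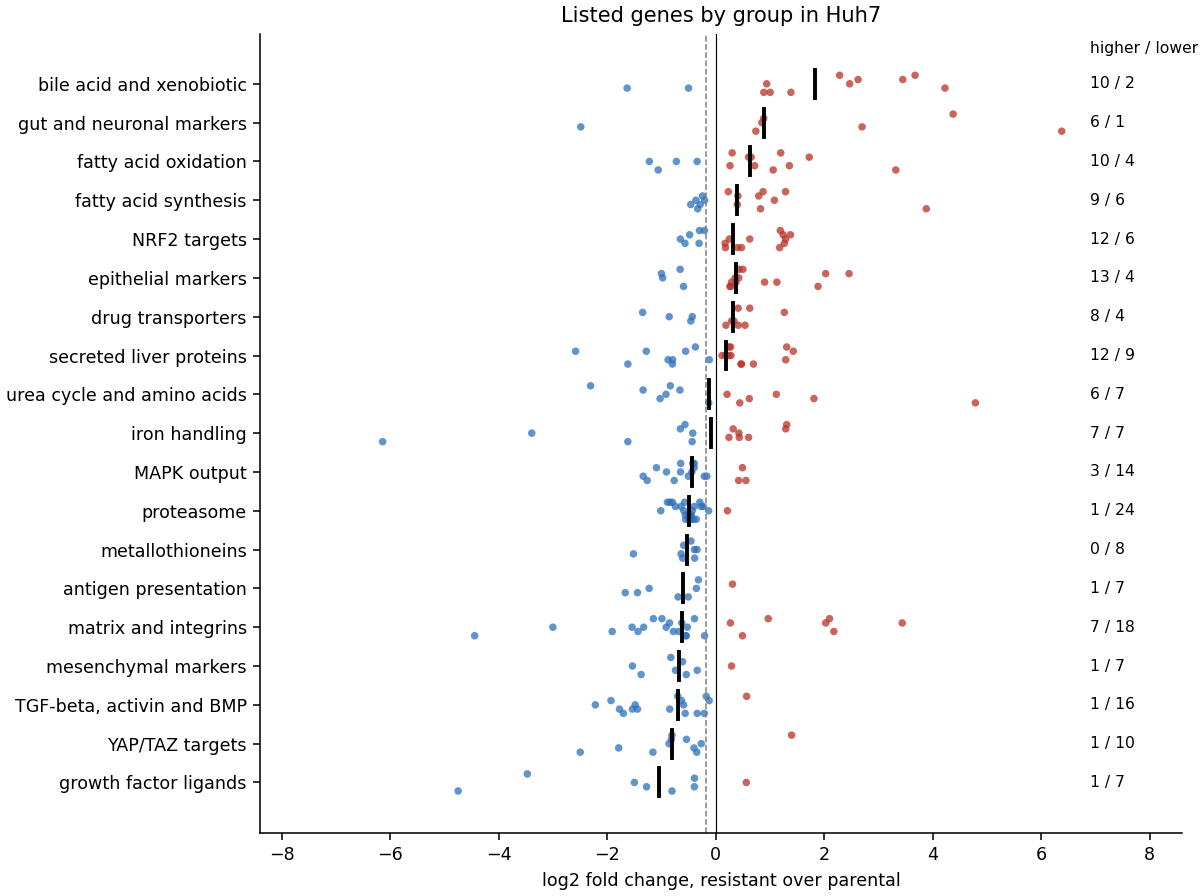
Log2 fold change of resistant over parental Huh7 cells for the measured members of 19 gene lists, 1 point per gene, with the list median as a black bar, the median over all genes as a dashed line, and the counts higher and lower at the right. Bile acid and xenobiotic genes have the highest median shown, 1.83, and growth factor ligands the lowest, -1.04.

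Of lenvatinib's targets, 4 of 10 were in the table. FGFR3 had 4304, 3957 and 3871 scaled reads in the resistant libraries, against 9822, 9111 and 8329.7 in the parental libraries, a fall in every resistant library. FGFR1 had 860.4, 804 and 866 scaled reads in the resistant libraries, against 1120.5, 1134 and 1190.2 in the parental libraries. FGFR4 had 10563, 10979 and 10575 scaled reads in the resistant libraries, against 13623, 12677 and 11739.9 in the parental libraries. The falls of FGFR1 and FGFR4 were small, at log2 fold changes of -0.44 ± 0.06 and -0.24 ± 0.05, and that of FGFR4 turned to 0.13 after centring by GC content. PDGFRA was the member that rose, with 244, 211 and 310 scaled reads in the resistant libraries, against 167, 193 and 179 in the parental libraries; it no longer passed the threshold after that centring. FGF19, the ligand, fell (-0.47 ± 0.06), the co-receptor KLB averaged 3346 ± 60.8 in resistant and 4738 ± 144 in parental cells, and FGF2 averaged 74.4 ± 9.300 in resistant and 120.2 ± 10.7 in parental cells. The FGF-induced inhibitors diverged, SPRY4 at 776 ± 68.3 in resistant and 1215 ± 43.1 in parental cells and SPRY2 at 1471 ± 91.7 in resistant and 1047 ± 62.7 in parental cells.

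Other receptor kinases that can carry growth signals split 4 higher and 8 lower. ROS1 averaged 229 ± 5.71 in resistant and 52.99 ± 10.3 in parental cells, and EPHB2, an ephrin receptor, 209 ± 15.5 in resistant and 54.6 ± 5.12 in parental cells. IGF1R averaged 552 ± 11.9 in resistant and 1153 ± 28.5 in parental cells, EPHA2 4362 ± 104 in resistant and 8910 ± 620.5 in parental cells, and EGFR, ERBB2 and AXL changed by -0.60 ± 0.05, -0.68 ± 0.06 and -2.50 ± 0.45. Growth factor ligands fell in 7 of 8 measured members, at a median of -1.04. EREG, epiregulin, an EGFR ligand, had 10.4, 3.15 and 7.21 scaled reads in the resistant libraries, against 171, 193 and 225 in the parental libraries. PDGFB had 30.1, 9.45 and 10.3 scaled reads in the resistant libraries, against 169, 181 and 162 in the parental libraries, HBEGF, another EGFR ligand, averaged 258 ± 38.98 in resistant and 728 ± 30.5 in parental cells, and PGF, a VEGF-family ligand, 580.3 ± 22.4 in resistant and 1415 ± 176 in parental cells. VEGFA fell (-0.81 ± 0.06). ANGPT1, a ligand of the TIE2 receptor, was the member that rose (0.56 ± 0.10).

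Genes induced by MAPK signalling fell in 14 of 17 measured members, at a median of -0.44 (-0.35 after centring by GC content). CCND1, cyclin D1, had 4715, 4587 and 4679 scaled reads in the resistant libraries, against 10923, 11332 and 11366 in the parental libraries. JUN, an AP-1 subunit, averaged 3583 ± 127 in resistant and 7668 ± 571 in parental cells, IER3, an immediate early gene, 369 ± 15.3 in resistant and 936 ± 64.5 in parental cells, and FOSL1, another AP-1 subunit, 42.6 ± 6.84 in resistant and 80.99 ± 14.00 in parental cells. The feedback phosphatases DUSP4 and DUSP6 fell (-0.77 ± 0.06 and -0.44 ± 0.07). MYC rose by 0.55 ± 0.06. In the PI3K and mTOR list, 8 of 14 rose, 5 of 14 after centring by GC content. DEPTOR, an mTOR-binding inhibitor, averaged 294 ± 18.9 in resistant and 68.6 ± 7.66 in parental cells, AKT2 1801 ± 54.9 in resistant and 3074 ± 321 in parental cells, FOXO3 1365 ± 37.1 in resistant and 862 ± 22.5 in parental cells, and FOXO1 552 ± 48.5 in resistant and 817 ± 86.6 in parental cells.

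Matrix and adhesion genes were mostly lower, 18 of 25 measured members, at a median of -0.63. COL1A1, a chain of type I collagen, had 62.3, 77.7 and 75.2 scaled reads in the resistant libraries, against 1662, 1547 and 1528 in the parental libraries. COL1A2, its partner chain, had 506, 522 and 529 scaled reads in the resistant libraries, against 2021, 2046 and 1806 in the parental libraries. LOXL2, which crosslinks collagen, had 90.3, 57.7 and 77.3 scaled reads in the resistant libraries, against 658, 591 and 555 in the parental libraries. All resistant libraries lay far below all parental ones. Single members rose: the integrin subunit ITGB8 averaged 95.9 ± 16.9 in resistant and 21.7 ± 4.41 in parental cells, and the subunit ITGA3 236 ± 33.3 in resistant and 57.3 ± 10.1 in parental cells. The adjacent basement membrane genes COL4A1 and COL4A2, named after their values were seen, went opposite ways, COL4A1 at 32.9 ± 2.99 in resistant and 84.6 ± 10.8 in parental cells and COL4A2 at 42.6 ± 4.55 in resistant and 3.21 ± 1.66 in parental cells.

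Of 10 fibroblast and stellate cell markers 3 were in the table (COL1A1, COL1A2 and LUM), of which the collagens are the genes just described; all 3 fell, and their summed level was 884 to 888 in resistant libraries and 4161 to 4350 in parental ones. Of other cell types, 3 of 10 endothelial markers, summed at 236 to 255 in resistant and 133 to 171 in parental libraries, and 2 of 10 leukocyte markers, at 5280 to 5460 in resistant and 6456 to 6674 in parental libraries, were in the table. Of the endothelial list PECAM1, which makes up most of that sum, averaged 240.4 ± 8.12 in resistant and 128 ± 18.9 in parental cells, while VWF, von Willebrand factor, averaged 3.82 ± 1.599 in resistant and 13.8 ± 5.01 in parental cells, and ESAM 3.796 ± 2.38 in resistant and 15.9 ± 3.43 in parental cells, so 1 marker rose and 2 fell at least 2-fold, at a median of -1.62. Of the leukocyte list LYZ, lysozyme, which makes up most of that sum, averaged 5339.9 ± 89.6 in resistant and 6561 ± 107 in parental cells, and PTPRC, the surface phosphatase CD45, 43.3 ± 16.4 in resistant and 19.6 ± 5.15 in parental cells, so 1 rose and 1 fell. Of 5 cholangiocyte markers SPP1, osteopontin, averaged 23.6 ± 3.79 in resistant and 80.6 ± 5.94 in parental cells, and TFF3, a trefoil peptide, 185 ± 28.9 in resistant and 56.5 ± 8.11 in parental cells. The part of other cells in these results was not tested. In bulk RNA, fewer cells of a kind and less RNA per cell cannot be told apart.

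Mesenchymal markers fell in 7 of 8 measured members and epithelial markers rose in 13 of 17. VIM, vimentin, had 1394, 1390.1 and 1448 scaled reads in the resistant libraries, against 3623, 3535 and 3847 in the parental libraries. TGFBI, a matrix protein induced by TGF-beta, had 4209.5, 4183 and 4341 scaled reads in the resistant libraries, against 12617, 12123 and 12229.8 in the parental libraries. ZEB1, a repressor of epithelial genes, averaged 198 ± 8.77 in resistant and 332 ± 15.6 in parental cells, and TAGLN, an actin-binding protein, 848 ± 129.8 in resistant and 1501 ± 161 in parental cells. On the epithelial side CLDN3, a tight junction claudin, averaged 213 ± 3.24 in resistant and 39.4 ± 12.7 in parental cells, and ESRP1, an epithelial splicing regulator, 279 ± 5.79 in resistant and 67.9 ± 4.77 in parental cells. The keratins of simple epithelia went against the rest of that list, KRT8 at 47769 ± 211 in resistant and 94362 ± 5921 in parental cells and KRT18 at 15323 ± 426 in resistant and 30723 ± 1432 in parental cells, among the largest losses in reads of the whole table.

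Targets of YAP and TAZ fell in 10 of 11 measured members, at a median of -0.81 (-0.60 after centring by GC content). CYR61, a secreted matricellular protein, had 2329, 2343 and 2457 scaled reads in the resistant libraries, against 8443, 8383 and 7873 in the parental libraries. CRIM1, a BMP-binding membrane protein, averaged 1367 ± 85.5 in resistant and 3052 ± 93.2 in parental cells, and ANKRD1 2802 ± 104 in resistant and 5098 ± 257 in parental cells. NT5E, the ecto-nucleotidase CD73, was the member that rose, with 2439, 2676 and 2521 scaled reads in the resistant libraries, against 905, 985 and 1008 in the parental libraries. In the list of TGF-beta, activin and BMP genes 16 of 17 fell, at a median of -0.70. Of the activin and inhibin subunits INHBB averaged 28.03 ± 5.18 in resistant and 134 ± 20.6 in parental cells and INHBE 146 ± 12.9 in resistant and 560.4 ± 39.6 in parental cells, INHBA fell (-1.78 ± 0.43) and TGFB1 (-1.49 ± 0.07), while the receptor TGFBR1 rose (0.57 ± 0.07). Wnt targets split 7 higher and 6 lower: LGR5, a receptor of R-spondins, averaged 536 ± 27.1 in resistant and 257 ± 25.4 in parental cells, the feedback inhibitor NOTUM 13.9 ± 3.02 in resistant and 105 ± 12.97 in parental cells, and AXIN2 52.7 ± 14.8 in resistant and 107 ± 17.1 in parental cells. Of 9 Notch genes 4 rose, with NRARP, a feedback target, at 191 ± 12.9 in resistant and 43.9 ± 6.76 in parental cells, NOTCH1 at 253 ± 11.8 in resistant and 577 ± 47.9 in parental cells, NOTCH3 at 109.8 ± 10.6 in resistant and 64.2 ± 16.1 in parental cells and the ligand DLL4 at 50.6 ± 4.76 in resistant and 88.8 ± 12.3 in parental cells.

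Replication and mitosis genes held no member that changed 2-fold, whereas 2 of 6 G1 regulators fell at least 2-fold. Replication genes split 10 higher and 5 lower at a median of 0.25, which became 0.12 after centring by GC content, with the helicase subunits MCM6 and MCM4 at 0.97 ± 0.05 and 0.68 ± 0.05 and MCM10 at 0.54 ± 0.07, and POLD1, a DNA polymerase subunit, at -0.58 ± 0.07. Mitotic genes split 5 higher and 4 lower, and their median of 0.19 became -0.04 after centring by GC content. TOP2A and TPX2 changed by -0.40 ± 0.05 and 0.31 ± 0.05; CCNA2, at 0.32 ± 0.05, no longer passed the threshold after that centring, and CDC20, at -0.34 ± 0.06, turned to 0.02. Of G1 regulators 5 of 6 fell, among them CDKN1C, the inhibitor p57, at 25.9 ± 10.7 in resistant and 168 ± 3.36 in parental cells, and CDKN2C, the inhibitor p18, at 199.6 ± 17.7 in resistant and 346 ± 68.6 in parental cells. The p53 target list split 4 higher and 4 lower: CDKN1A, the inhibitor p21, averaged 449.6 ± 59.3 in resistant and 283 ± 22.6 in parental cells, SESN1 546 ± 21.4 in resistant and 231 ± 35.1 in parental cells, GDF15 823 ± 80.8 in resistant and 1677 ± 11.6 in parental cells, and PLK3 117 ± 3.03 in resistant and 285 ± 25.8 in parental cells. Of the BCL2 family 8 of 11 fell, 5 of 11 after centring by GC content. Anti-apoptotic BCL2L1 averaged 4656 ± 139 in resistant and 7111 ± 368 in parental cells, and pro-apoptotic BAX 889 ± 10.99 in resistant and 1315 ± 162 in parental cells, BAD 57.8 ± 11.1 in resistant and 121 ± 26.96 in parental cells, and BOK 399 ± 31.7 in resistant and 271 ± 17.3 in parental cells.

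Proteasome genes fell nearly as a block. Of 25 measured proteasome members 24 fell, at a median of -0.49 and a range of -1.02 to 0.21, and after centring by GC content 23 were called lower and 0 higher. PSMB6, a catalytic core subunit, had 1726, 1764 and 1694 scaled reads in the resistant libraries, against 3599, 3156 and 2913 in the parental libraries. PSMC4, an ATPase of the cap, averaged 1596 ± 57.6 in resistant and 2872 ± 227 in parental cells, PSMB1 2011 ± 39.8 in resistant and 3506 ± 209 in parental cells, and PSMA6 34.7 ± 5.43 in resistant and 70.7 ± 6.74 in parental cells. The member that rose was PSMD1 (0.21 ± 0.05). Of 15 measured genes of the endoplasmic reticulum stress response 14 fell, at a median of -0.29 beside -0.19 over all genes. After centring by GC content 10 were called lower and 2 higher. SDF2L1 changed by -0.75 ± 0.10, the stress sensor ERN1 by -0.66 ± 0.09, SEL1L by -0.58 ± 0.06 and EDEM1 by -0.46 ± 0.06. Ribosomal proteins split 15 higher and 7 lower with small changes, the largest rise being that of RPL7 at 0.69, with RPS4X and RPL35 at 0.44 ± 0.04 and 0.44 ± 0.07.

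Antioxidant NRF2 targets rose in 12 of 18 and fell in 6, at a median of 0.32. The largest fall in this list was that of FTH1, given above (-0.65 ± 0.05). AKR1C1, an aldo-keto reductase with close paralogues, had 6809, 6854 and 6816 scaled reads in the resistant libraries, against 2472, 2679 and 2742 in the parental libraries. SLC7A11, the cystine importer, averaged 1439 ± 32.02 in resistant and 609 ± 36.8 in parental cells. ABCC2, the canalicular exporter of conjugates, had 6109.8, 5706 and 5685 scaled reads in the resistant libraries, against 2330.1, 2431 and 2529 in the parental libraries. Of 12 drug transporters 8 rose, with ABCC3 at 0.63 ± 0.08 and the cation carrier SLC22A3 at 0.54 ± 0.12; ABCC1 averaged 267 ± 25.8 in resistant and 486 ± 31.7 in parental cells. The multidrug transporters ABCB1 and ABCG2 rose by 0.19 ± 0.05 and 0.41 ± 0.08. ATF4 targets split 8 higher and 9 lower, and their median of -0.29 became 0.07 after centring by GC content. ALDH1L2, of mitochondrial folate metabolism, and CHAC1, which degrades glutathione, rose (1.26 ± 0.15 and 0.90 ± 0.19), and the amino acid carrier SLC7A1 fell (-0.78 ± 0.08).

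Glycolysis and hypoxia genes split 11 higher and 11 lower, and ran from -3.83 (SLC2A3) to 3.63 (EGLN3) on the log2 scale. SLC2A3, a glucose transporter, averaged 4.13 ± 3.72 in resistant and 51.8 ± 5.22 in parental cells, EGLN3, a prolyl hydroxylase that marks HIF for destruction, 49.2 ± 12.9 in resistant and 3.62 ± 2.999 in parental cells, HK1, a hexokinase, 12.5 ± 3.86 in resistant and 92.9 ± 8.76 in parental cells, and PFKFB4 398 ± 32.5 in resistant and 185 ± 60.05 in parental cells. ENO2, given above, is also in this list. In the glucose output list 5 of 9 rose. GCKR, which restrains glucokinase, averaged 103 ± 4.75 in resistant and 18.7 ± 5.73 in parental cells, PCK2, the mitochondrial PEPCK, 2397 ± 14.8 in resistant and 1016 ± 83.2 in parental cells, the glucose transporter SLC2A2 119.9 ± 0.475 in resistant and 325 ± 15.8 in parental cells, and PYGL, liver glycogen phosphorylase, 3651 ± 115 in resistant and 2145 ± 68.8 in parental cells. Nuclear-encoded respiratory genes split 6 higher and 7 lower, with NDUFA1, of complex I and encoded on the X chromosome, at 273 ± 53.98 in resistant and 683 ± 144 in parental cells, ATP5F1A, of ATP synthase, at 11498 ± 251 in resistant and 7132 ± 131 in parental cells, ATP5F1C at 0.38 ± 0.05 and UQCRC2 at 0.33 ± 0.06.

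The largest gain in reads was that of a mitochondrial gene, followed closely by AFP. MT-CO1, a subunit of cytochrome oxidase, had 237864, 256049 and 247664 scaled reads in the resistant libraries, against 150923, 167010 and 180894 in the parental libraries. MT-ND4, MT-ND5 and MT-CO2 rose by 0.54 ± 0.05, 0.58 ± 0.05 and 0.37 ± 0.05 on the log2 scale, and 13 of the 15 mitochondrial genes in the table were higher. MT-ND3 (-0.15 ± 0.06) and the transfer RNA gene MT-TH (-1.79 ± 0.27) were lower. Besides MT-CO1, MT-ND4, MT-ND5 and MT-CO2, the 8 largest gains were AFP, TF, ALDH1A1, a retinaldehyde dehydrogenase, at 59740.5 ± 484 in resistant and 31249 ± 648 in parental cells, and EEF1A1, a translation elongation factor, at 148652 ± 1413 in resistant and 118826 ± 2903 in parental cells. The largest losses included KRT8, FTL, APOE, FGB, KRT18, FTH1, AHSG and ACTB, beta-actin, at 75065 ± 2191 in resistant and 90376 ± 3008 in parental cells; ACTB turned to 0.02 after centring by GC content. Copies of mitochondrial, EEF1A1 and ACTB sequence elsewhere in the genome make the exact counts of these genes uncertain.

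Class I antigen presentation genes fell in 7 of 8 measured members, at a median of -0.60. HLA-B averaged 18.02 ± 2.27 in resistant and 59.9 ± 11.1 in parental cells, HLA-C 123 ± 16.6 in resistant and 289 ± 13.7 in parental cells, and the peptide transporter TAP1 47.8 ± 3.58 in resistant and 78.8 ± 14.3 in parental cells; TAP1 no longer passed the threshold after centring by GC content, and reads of HLA genes may be divided between them. Their regulator NLRC5 fell (-1.44 ± 0.37), and HLA-E was the member that rose (0.31 ± 0.08). Interferon-stimulated genes split 6 higher and 5 lower, with OAS1, which senses double-stranded RNA, at 249.6 ± 18.6 in resistant and 81.6 ± 26.3 in parental cells, its relative OAS3 at 1208 ± 26.2 in resistant and 455 ± 29.3 in parental cells, IFI35 at 29.8 ± 5.82 in resistant and 154 ± 9.299 in parental cells, and IFIT3 at 77.3 ± 9.37 in resistant and 155 ± 15.01 in parental cells. Chemokine and NF-kappaB genes split 6 higher and 6 lower. CXCL5, a neutrophil attractant, had 5728, 5285 and 5252 scaled reads in the resistant libraries, against 1309.5, 1507 and 1666 in the parental libraries. CXCL6, another neutrophil attractant, had 121, 95.5 and 96.8 scaled reads in the resistant libraries, against 531, 524 and 580.4 in the parental libraries. CXCL5 was higher and CXCL6 lower in every resistant library than in any parental one. CXCL3 averaged 185 ± 45.6 in resistant and 60.5 ± 2.38 in parental cells, and CXCL8, interleukin-8, 1749.6 ± 181 in resistant and 3342 ± 444 in parental cells.

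The direction of change was uneven over chromosomes, a description with no test. On chromosome 18, 89.9% of 158 listed genes were higher in resistant cells (85.4% after centring by GC content) and 28.5% were at least 2-fold higher. On chromosome 19, 16.2% of 520 were higher (31.0%), on chromosome 1, 26.5% of 780 (30.9%), and on the X chromosome, 24.7% of 251 (31.1%), where 24.3% were at least 2-fold lower. The share over all chromosomes was 48.0%. Chromosome 19 genes had a median GC content of 59.2% and chromosome 18 genes of 43.5%, against 48.6% over all listed genes, and the share on chromosome 19 moved more under the centring than that on chromosome 18. Copy number was not measured in these files.

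**Figure D4:**
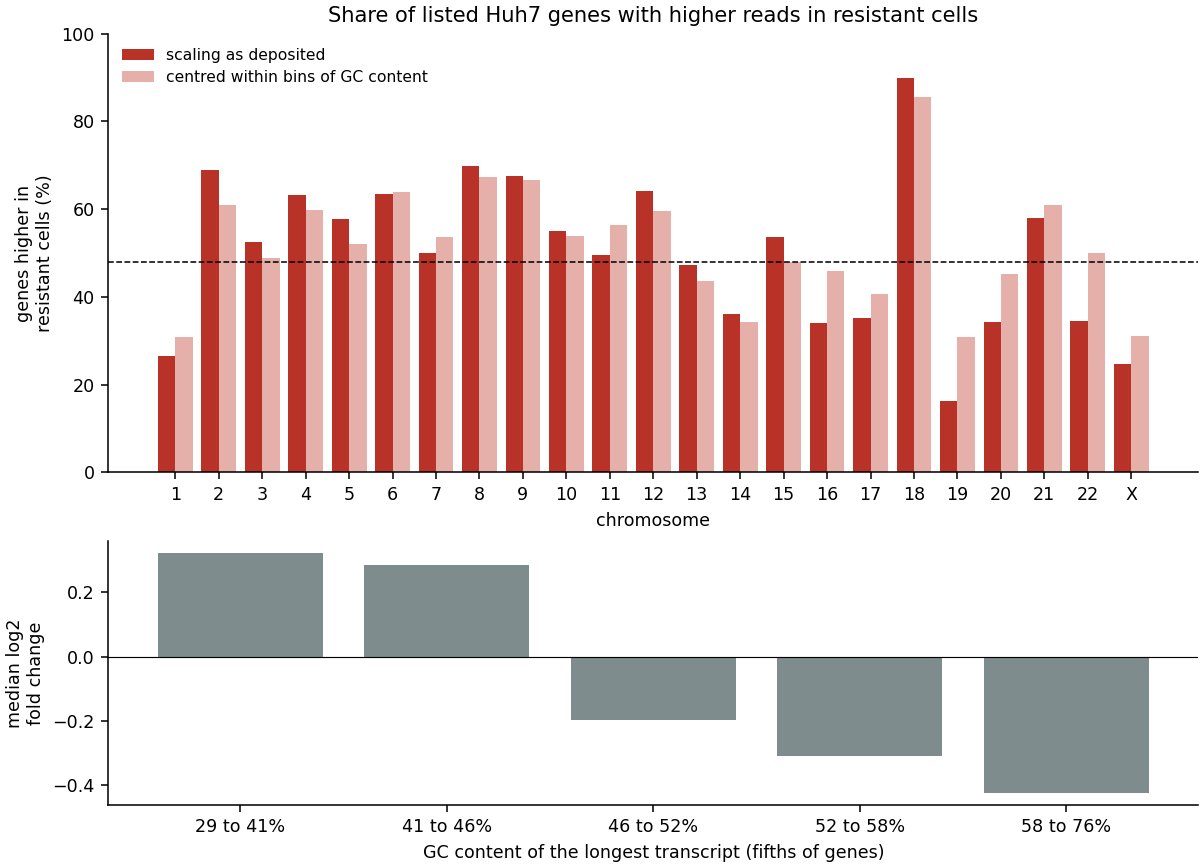
Upper panel, percent of listed Huh7 genes with higher levels in resistant cells on each chromosome, as deposited (dark) and after centring within bins of GC content (light), with the share over all genes as a dashed line; lower panel, median log2 fold change of resistant over parental cells in 5 equal groups of genes by GC content. Chromosome 18 stands highest at 89.9% and chromosome 19 lowest at 16.2%, and the median passes from 0.32 to -0.42 with rising GC content.

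Where resistant Huh7 cells differed from resistant Hep3B cells was tested as the Huh7 minus the Hep3B log2 fold change over the 3885 symbols in both tables, which were normalized separately and share no libraries. It was called for 2576 symbols (66.3%), with the Huh7 change above that in Hep3B for 1169 (30.1%) and below it for 1407 (36.2%). With both tables centred on their medians the split was 1469 above and 1074 below. Huh7 genes were selected for a change and the Hep3B table was not restricted in the same way. The 7 genes given here have large differences among the genes named by other rules, several of which pick large Huh7 changes. All 7 fell in Huh7 and rose in Hep3B, each past the threshold of its own limma fit. Large differences the other way also occurred. CDX2, RFX6 and CXCL5 rose in Huh7 and fell in Hep3B, with differences of 5.60 ± 0.56, 4.89 ± 0.29 and 4.59 ± 0.10. COL1A1 averaged 71.7 ± 8.28 scaled reads in resistant and 1579 ± 72.4 in parental Huh7 cells, whereas in Hep3B it averaged 1937 ± 177 in resistant and 24.9 ± 7.23 in parental cells (SD, n = 3 each), a difference of -10.70 ± 0.19 (SE). A t test of the difference between the 2 limma fits gave COL1A1 an adjusted p of 1.13e-15. LOXL2 averaged 777 ± 42.3 in resistant and 11.8 ± 4.05 in parental cells in Hep3B, a difference of -8.97 ± 0.23. IRF8 averaged 106 ± 9.92 in resistant and 2.67 ± 1.14 in parental cells in Hep3B, a difference of -10.47 ± 0.67. These 3 genes thus moved by large factors in opposite directions. PDGFB averaged 141 ± 12.8 in resistant and 7.25 ± 1.72 in parental cells in Hep3B, a difference of -7.60 ± 0.40. For KIRREL1, APBB1IP and ARHGAP23 the rise in Hep3B was smaller, at log2 fold changes of 1.43, 1.33 and 1.14.

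**Figure D5:**
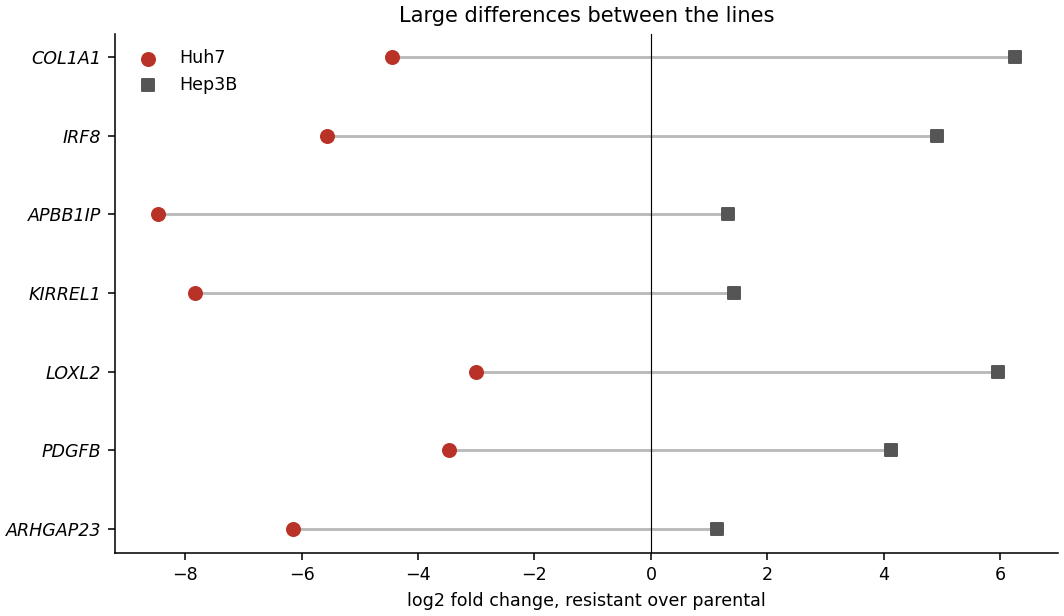
Log2 fold change of resistant over parental cells (horizontal) in Huh7 (red circles) and Hep3B (grey squares) for 7 named genes with large differences between the lines. All 7 lie below 0 in Huh7 and above 0 in Hep3B, COL1A1 with the widest gap.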

How the data were processed

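RNA-seq tables of resistant and parental Huh7 and Hep3B cells were used, on GRCh37 according to the submitters' processing notes; the sources used here name no aligner, counting tool or strand setting, so overlapping and antisense genes cannot be told apart. The deposited Huh7 signal values are whole reads per Ensembl gene times 1 factor per library: 100% of values came out whole within 0.05. Each deposited Hep3B signal value is 2 times a square root. Under the root stand the reads of 1 RefSeq transcript plus a small constant, times 1 factor per library. This form was found from the values, and undoing it gave whole reads (100% whole). The authors also deposited a log2 fold change and an adjusted p-value per gene, per the file headers. The values were neither counts nor a unit such as FPKM, and the test planned for normalized values was used.

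The scaled reads of the 3 resistant and 3 parental Huh7 libraries were tested with limma 3.58.1 (trend, robust; R 4.3.3), two-sided, on log2(scaled reads + 1), for genes reaching 1 scaled read in 3 or more libraries; p-values were adjusted by the Benjamini-Hochberg method and called under 0.05; 2 of 7533 genes were not tested. As an added alternative edgeR 4.0.16 (quasi-likelihood) on the recovered counts of the deposited table, with the deposited factors, called 7531 genes. DESeq2 1.42.0, pseudocounts of 0.5 and 4, other filters and scalings, a replicate block and each library left out were also tried. The difference between lines was set over the root of the summed squared standard errors. The limma procedure was tested on simulated data.

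The genes and the 47 lists (922 genes, 549 in the Huh7 table) were chosen with earlier results of these data known. Named were the 15 largest rises and falls with a mean of at least 100, the 8 largest gains and losses in reads, up to 4 members per list with a mean of at least 50, all measured target kinases, iron and lipoprotein genes, up to 8 genes per direction with 3 or fewer reads in a group, and 7 of the 8 largest line differences, with a few genes not reported here; other members are named as examples of their list after their values were seen. Replicate numbers were not treated as pairs. Gene types and GC content of the longest transcript came from GENCODE release 29, matched by Ensembl ID, and promoter sequences from RefSeq.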

Additional observations from a re-analysis of the deposited data

Results flagged for a closer look

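In 7 named genes the resistant over parental log2 fold change in Huh7 lay far below that in Hep3B, by the test of the difference itself over 3885 symbols, of which 36.2% were called in this direction. The Huh7 minus Hep3B difference was -10.70 for COL1A1, -10.47 for IRF8, -9.80 for APBB1IP, -9.27 for KIRREL1, -8.97 for LOXL2, -7.60 for PDGFB and -7.28 for ARHGAP23. Over the 15 alternatives the difference of COL1A1 ran from -10.92 to -10.48 and that of IRF8 from -11.51 to -8.44. The largest adjusted p of IRF8 in the t test of the difference between the limma fits was 0.000768. For APBB1IP and ARHGAP23, which had 0 and 1 resistant Huh7 reads, the size depends on the pseudocount, and the ranges were -9.94 to -7.71 and -7.62 to -5.51. KIRREL1 and IRF8 also had few resistant Huh7 reads, 5 and 12. The difference of KIRREL1 ran from -9.68 to -7.68. In Hep3B each value belongs to 1 transcript and in Huh7 to the whole gene, and the part of this in the differences was not tested.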

How the results depend on the processing

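The counts of 3614 genes higher and 3917 lower were also given by the other pseudocounts, by no filter and by edgeR with the deposited factors. With TMM the counts were 3614 and 3892, with DESeq2 3614 and 3497, with median centring 3614 and 3746, with quantile normalization 3604 and 3734, and with limma without trend and robust 3544 and 3830. Leaving out each library in turn gave 3557 to 3601 higher and 3847 to 3896 lower, 940 to 966 at least 2-fold higher and 940 to 1005 at least 2-fold lower. With the replicate number as a block the counts were again 3614 and 3917, and no named gene changed its call; same-numbered libraries deviated together with correlations of -0.008, 0.005 and 0.049, so the numbers are not read as pairs. For the line difference the block gave 1226 above and 1486 below, and leaving out each library 1113 to 1178 and 1322 to 1437. Each symbol has 1 Hep3B entry, so the alternative of using only such symbols gave no other value.

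Centring within bins of GC content, chosen after seeing the data, changed the sign of 845 genes, 251 of which were called with the other sign. Named genes that reversed were ACTB (0.0215), FGFR4 (0.13), CDC20 (0.0161), IREB2 (-0.0730), APOH (-0.0260) and SCARB1 (0.0252). Under it, higher counts became 2 for the FGF19 axis (1 before), 5 for PI3K and mTOR (8), 0 for the proteasome (1), 2 for endoplasmic reticulum stress (1), 2 for mitosis (5), 0 for mesenchymal markers (1) and 2 for TGF-beta genes (1). Lower counts became 3 for the FGF19 axis (5 before), 2 for cholesterol synthesis (7), 7 for glycolysis (11), 3 for ribosomal proteins (7), 5 for ATF4 targets (9), 5 for the BCL2 family (8), 3 for replication (5) and 5 for metallothioneins (8). With DESeq2, 4 cholesterol genes were lower; with quantile normalization, 4 ribosomal proteins were lower and 0 stress genes higher. A filter of at least 10 scaled reads left 1 endothelial marker lower, since fewer genes were tested. Quantile normalization sets the top ranks equal by construction, and MT-CO1, AFP and EEF1A1 were not called there. For the other changes the cause was not tested. Depth limits genes with few reads: at 3 or fewer reads in a group a fold is a bound or a wide interval.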

Other observations

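Some large changes lay next to each other in the genome. Runs of at least 4 consecutive listed genes that all moved at least 2-fold the same way, a rule set after seeing the data, included a set of neighbours on chromosome 4: the glucuronosyltransferases UGT2B10, UGT2A3, UGT2B7 and UGT2B11 and the sulfotransferases SULT1B1 and SULT1E1, with ODAM, all rose, at log2 fold changes of 2.19 ± 0.28, 1.12 ± 0.24, 1.38 ± 0.21, 1.57 ± 0.21, 2.89 ± 0.24, 4.23 ± 0.16 and 3.55 ± 0.32 (SE). The UGT2B genes are close paralogues, so their reads may have been divided. The alcohol dehydrogenase genes ADH6, ADH1A and ADH1C, also on chromosome 4, rose by 1.33 ± 0.12, 2.02 ± 0.49 and 2.63 ± 0.16. ADH1C averaged 243 ± 23.5 in resistant and 38.6 ± 5.85 in parental cells. On chromosome 21 the trefoil peptides TFF3, TFF2 and TFF1, which protect mucosal surfaces, rose by 1.69 ± 0.16, 2.56 ± 0.15 and 1.22 ± 0.15, and TFF2 averaged 289.9 ± 16.3 in resistant and 48.9 ± 9.39 in parental cells. On chromosome 5 a run of 5 protocadherin beta genes rose, from 1.14 (PCDHB11) to 2.66 (PCDHB8) on the log2 scale.

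Runs of falls on the X chromosome included GABRE, PNMA3, PNMA6A and BGN, with log2 fold changes from -2.12 to -1.34. A pair of other runs there held genes with 0 resistant reads. APOOL, ZNF711, POF1B and CHM had 0 reads in all resistant libraries and averaged 84.2, 6.204, 17.8 and 93.4 scaled reads in parental ones. In the other, PRRG1 had 0 resistant reads and a parental mean of 17.8, DYNLT3 averaged 1.05 ± 1.82 in resistant and 157 ± 12.8 in parental cells, and SYTL5, a few genes on, still averaged 248 ± 11.3 in resistant and 562 ± 21.4 in parental cells. On chromosome 3 the chemokine receptors fell, CCR3 at 8.66 ± 4.19 in resistant and 47.5 ± 1.66 in parental cells, CCR1 at 73.8 ± 1.46 in resistant and 158 ± 11.9 in parental cells, and CCRL2 at 20.1 ± 4.03 in resistant and 131 ± 9.21 in parental cells. Listed genes can be neighbours in the table with unlisted genes between them, and no test of these runs was made.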
